A study of Mus musculus with 8 samples.

Results

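H3K27Ac was examined at the genes of 3 MEF2 transcription factors (*Mef2a*, *Mef2c* and *Mef2d*) and of the 4 class IIa histone deacetylases (*Hdac4*, *Hdac5*, *Hdac7* and *Hdac9*) in P7 mouse ventricles with and without cardiomyocyte *Arid1a*. Peaks were chosen by their position, as those whose centre lay nearest to a curated RefSeq transcription start of one of the 7 genes. This rule took 72 of the 45980 peaks on placed chromosomes and gave peaks to 6 of the 7 genes, with none for *Hdac5*. The genes themselves were selected after results of these data were known, so every count here is a description and carries no test. The ChIP-Seq was made from whole ventricles of postnatal day 7 pups of both sexes on a C57B/6J background. The 2 controls carried floxed *Arid1a* alleles (Arid1a f/f) and no Cre, and the 2 *Arid1a cKO* samples carried the same floxed alleles with aMHC-Cre, a transgene active in cardiomyocytes and not in the other cells of the ventricle. Each of the 4 had a matched input library, for 8 libraries in all. The deposited table gives 1 mean per group and 0 columns of single samples, so depth is unknown, and differences are given without a replicate error, interval or p-value.

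MEF2 proteins bind AT-rich sites in the control regions of muscle genes and switch on contractile and metabolic genes in cardiomyocytes. Class IIa deacetylases bind MEF2 and keep its targets silent. When kinases of the CaMK and protein kinase D families phosphorylate them, 14-3-3 proteins escort them out of the nucleus and MEF2 is released. Both families are known from stress-induced growth of the heart. H3K27Ac marks active promoters and enhancers, so the peaks below report on the regulatory regions of these genes and not on their mRNA or protein.

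The lower peaks lay mainly at *Hdac4*. Every one of its 17 peaks had a lower mean in *Arid1a cKO* than in control ventricles, 12 of them by at least 2-fold, while its start kept most of its signal. Of all 45980 peaks, 22225 had a lower mean in *Arid1a cKO*, and 10.6% were at least 2-fold lower. *Hdac9* held both lower and higher peaks, *Mef2a* had a small group of lower peaks over 100 kb upstream of its start, and the peaks of *Mef2c*, *Mef2d*, *Hdac5* and *Hdac7* mostly stayed within 2-fold. Levels are given throughout as the authors' mean normalized reads per peak, and differences as log2 of *Arid1a cKO* minus log2 of control, with a 2-fold difference as the size called lower or higher.

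The sequences of a few regions are printed first, to show what the lower *Hdac4* peaks and the start regions of the family hold. Positions are in mm10, sequences come from the GRCm38.p6 reference, and each is written 5′ to 3′ on the strand of its gene. Capitals mark matches on either strand to the MEF2 core (CTANNNNTAG with A or T at each N), the ESRR core (AAGGTCA) or the TEAD core (CATTCC). The first pair are the central 200 bases of 2 intronic *Hdac4* peaks, shown because one differed most and the other had the highest control level among the lower peaks. Each holds 1 TEAD core and no MEF2 core.
*Hdac4* intron, chr1:92108200-92108399, minus strand: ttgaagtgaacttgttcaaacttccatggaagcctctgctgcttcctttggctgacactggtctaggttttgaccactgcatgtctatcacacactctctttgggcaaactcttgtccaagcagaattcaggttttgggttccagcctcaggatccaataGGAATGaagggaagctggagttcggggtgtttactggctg
*Hdac4* intron, chr1:92115678-92115877, minus strand: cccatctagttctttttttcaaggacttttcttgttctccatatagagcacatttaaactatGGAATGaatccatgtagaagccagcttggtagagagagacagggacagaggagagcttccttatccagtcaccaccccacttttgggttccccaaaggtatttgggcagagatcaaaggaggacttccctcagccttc

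The next sequences are windows of 10 bases on each side of MEF2 core matches. The first lies upstream of *Hdac4* and is the only match in any of the 19 member peaks that were at least 2-fold lower. The others lie in peaks that stayed within 2-fold. They show the match that spans the *Mef2a* transcription start, a pair of neighbouring matches inside *Mef2c*, and 1 match each at the *Mef2d* start region, in *Hdac7* and at the *Hdac9* start.
*Hdac4* upstream, chr1:92270662-92270691, minus strand: taaacagcagCTATTTTTAGgttctggaaa
*Mef2a* start, chr7:67372841-67372870, minus strand: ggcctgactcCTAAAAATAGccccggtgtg
*Mef2c* intron, chr13:83603965-83603994, plus strand: tggcagttgcCTAAAAATAGaaaactgctt
*Mef2c* intron, chr13:83603987-83604016, plus strand: aactgcttaaCTAAAAATAGcctggctctc
*Mef2d* start region, chr3:88140783-88140812, plus strand: tggggaagcaCTAAAAATAGaggccacaag
*Hdac7*, chr15:97812341-97812370, minus strand: tgctggtgagCTATAAATAGctcctgcacc
*Hdac9* start region, chr12:34527836-34527865, minus strand: acaagcggaaCTATTTATAGatctaccttc

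The last set are the 250 bases before a start. *Hdac4* and the most downstream *Mef2c* start are shown because their start peaks differed most and least between the groups. *Hdac5* is shown because it alone held a MEF2 core, over the 13 member starts with a RefSeq promoter sequence. The *Mef2c* start at chr13:83524743 was not among these 13.
*Hdac4* promoter, chr1:92180342-92180591, minus strand: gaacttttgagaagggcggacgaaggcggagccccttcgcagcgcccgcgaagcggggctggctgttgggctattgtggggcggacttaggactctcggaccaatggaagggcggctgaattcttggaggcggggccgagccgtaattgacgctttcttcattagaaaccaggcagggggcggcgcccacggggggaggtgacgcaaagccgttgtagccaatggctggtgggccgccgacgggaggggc
*Mef2c* promoter, chr13:83573357-83573606, plus strand: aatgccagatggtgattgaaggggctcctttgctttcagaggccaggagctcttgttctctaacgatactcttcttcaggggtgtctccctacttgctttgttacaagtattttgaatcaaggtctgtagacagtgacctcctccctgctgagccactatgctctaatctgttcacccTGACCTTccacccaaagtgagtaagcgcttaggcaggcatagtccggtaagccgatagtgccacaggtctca
*Hdac5* promoter, chr11:102230173-102230422, minus strand: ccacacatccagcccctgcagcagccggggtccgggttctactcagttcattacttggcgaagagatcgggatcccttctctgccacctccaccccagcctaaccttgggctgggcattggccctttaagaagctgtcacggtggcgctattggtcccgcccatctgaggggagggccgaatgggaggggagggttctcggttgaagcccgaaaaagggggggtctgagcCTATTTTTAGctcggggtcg

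Among 32851 RefSeq promoters of the same length, 0.508% held a MEF2 core, 4.08% an ESRR core and 12.6% a TEAD core. The *Hdac4* promoter held none of the 3 cores and had 23 CpG dinucleotides, against a median of 6 over all promoters and 4 in the *Mef2c* promoter printed above, which held 1 ESRR core. Counts near that of *Hdac4* were also found at *Mef2a* (21), *Mef2d* (19) and a pair of *Hdac7* starts (25 and 21). The other member starts among the 13 had from 0 to 12.

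Across the 7 genes, 19 of the 72 peaks (26.4%) were at least 2-fold lower in *Arid1a cKO* and 4 (5.56%) were at least 2-fold higher. Over all 45980 peaks the same shares were 10.6% and 4.57%. *Hdac4* held 12 of the 19 lower peaks. Without it, 7 of 55 peaks (12.7%) were lower and 4 (7.27%) higher, shares close to those of all peaks. The median difference was -0.31 over the 72 peaks and -0.09 over the 55, beside 0.01 over all peaks. The median width of member peaks, 1780 bp, was almost that of all peaks, 1781 bp. In whole ventricles, fewer cells of a type and less H3K27Ac per cell cannot be told apart.

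**Figure D1:**
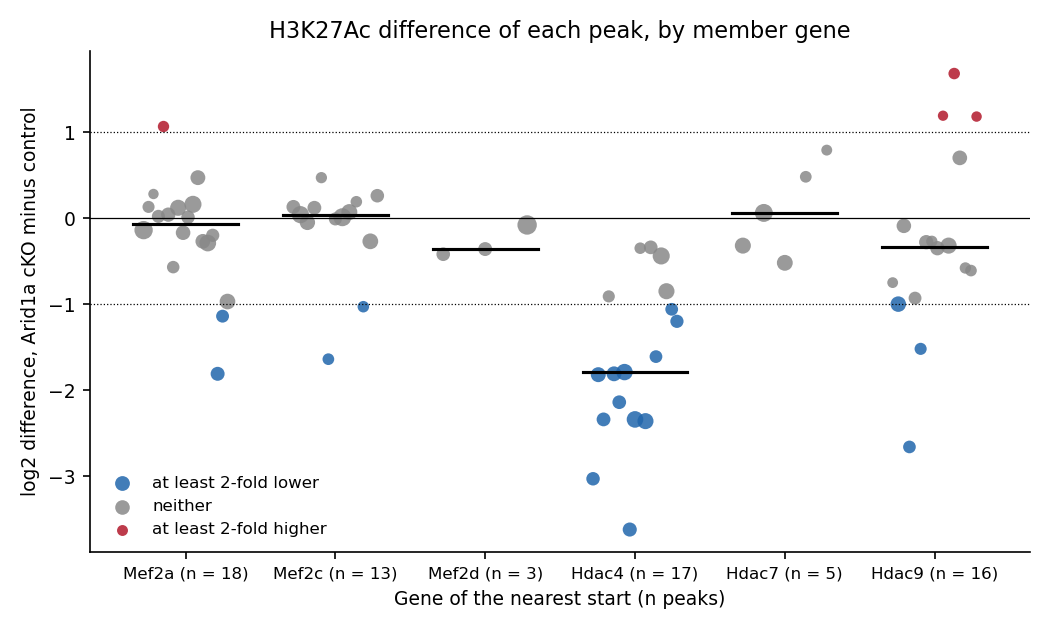
Each point is 1 peak, placed by the gene of its nearest start, with the log2 difference of *Arid1a cKO* minus control on the vertical axis and a larger point for a higher control level. Bars are medians and dotted lines mark 2-fold. All 17 *Hdac4* points lie below 0 with a median of -1.79, while the medians of the other 5 genes lie between -0.36 and 0.06.

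The lower peaks lay away from the starts, as they mostly did over all peaks. Of the 10 member peaks centred within 5 kb of a start, 0 were lower, beside 615 of all 14947 such peaks. Of the 32 centred over 50 kb away, 14 (43.8%) were lower, beside 14.2% of all peaks at that distance. *Hdac4* held 10 of these 14, and without it 4 of 20 were lower. The 8 member peaks that covered a transcription start differed by between -0.44 and 0.06, although none was centred inside the narrow promoter window of 1000 bp upstream to 100 bp downstream.

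*Mef2d* had the strongest start of the family, a peak 22182 bp wide with 3795 normalized reads in control and 3591 in *Arid1a cKO*. The *Mef2a* start peak had 1418 and 1287 reads. *Mef2c* is transcribed from several starts, and the peak over the middle pair had 534 reads in control and 549 in *Arid1a cKO*. The peak over its most downstream start had 1053 and 1060.1. The 4 MEF2 start peaks thus differed by -0.14 to 0.04 on the log2 scale, with both groups nearly at the same level at each.

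Start peaks of the deacetylases also stayed within 2-fold, and all but 1 had a smaller mean in *Arid1a cKO*. The *Hdac4* start peak had 495 reads in control and 365 in *Arid1a cKO*, a difference of -0.44. Of all peaks in the same decile of overall level, 8.55% were at least as low. The peak over the *Hdac5* start, whose centre lay nearer to the start of the microRNA gene *Mir8101*, had 236 and 204 reads (-0.21). *Hdac7*, best known from endothelial cells, had a peak of 13630 bp over a pair of its starts with 1031 and 1075 reads (0.06), and a weaker one over its most downstream start with 214 and 171 (-0.32). The *Hdac9* peak covered the start of its short transcript and had 229 and 184 reads (-0.32). No peak covered the most upstream starts of *Mef2c*, *Hdac7* and *Hdac9*. These values place *Hdac4* lowest in *Arid1a cKO* relative to control, but within 2-fold.

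**Figure D2:**
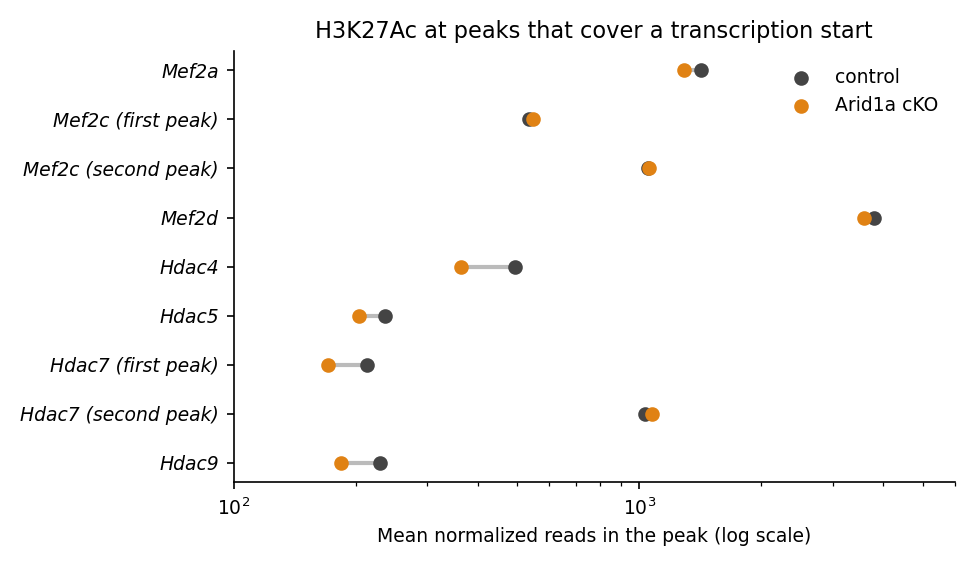
Mean normalized reads on a log axis for each peak that covers a transcription start of a member, in control (grey) and *Arid1a cKO* (orange). The MEF2 pairs nearly overlap, and the widest gap is at *Hdac4*, from 495 to 365 reads.

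*Hdac4*, which shuttles between nucleus and cytoplasm in response to CaMKII, spans 251.563 kb on the minus strand of chromosome 1. Its 17 peaks together held 2058 normalized reads in control and 839.8 in *Arid1a cKO*, 40.8% of control, over 50.2 kb. The median difference was -1.79, and differences ran from -3.62 to -0.34. The start peak alone made up 495 of the control reads. The 13 other peaks centred inside the gene, all in introns, held 1287 reads in control and 327 in *Arid1a cKO*, 25.4% of control.

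Nearest to the start, an intronic peak 13.2 kb into the gene had 21.7 reads in control and 7.11 in *Arid1a cKO* (-1.61). At 43.0 kb a peak of 40.8 reads had 32.2 in *Arid1a cKO* (-0.34), the smallest difference in the gene. From there a run of strong peaks followed. At 49.958 kb into the gene (chr1:92128635-92132132) the level was 218 in control and 42.5 in *Arid1a cKO* (-2.36), and a weak neighbour at 52.9 kb had 10.9 and 8.52 (-0.35). At 64.6 kb (chr1:92111341-92120215), the broadest *Hdac4* peak at 8875 bp, it was 333 and 65.8 (-2.34). Of all peaks in the same decile of overall level, 0.174% were at least as low as this one.

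The largest difference lay 72.0 kb into the gene (chr1:92107448-92109152), with 52.3 reads in control and 4.26 in *Arid1a cKO*, 12.3-fold lower (-3.62). At 79.4 kb (chr1:92097856-92103936) the level was 292 and 84.4 (-1.79). Apart from the start peak, the 3 strongest peaks inside the gene, each over 200 reads in control, thus all had under 100 in *Arid1a cKO*. Further in, at 93.4 kb, 39.7 reads compared with 9.0 (-2.14), and at 96.8 kb 89.9 compared with 25.6 (-1.81). A last cluster lay between 131.687 and 152.073 kb. Its 4 peaks had 15.1, 43.1, 95.7 and 34.8 reads in control and 8.06, 8.52, 27.1 and 4.26 in *Arid1a cKO*, differences of -0.91, -2.34, -1.82 and -3.03. The 3 intronic peaks beside the start peak that stayed within 2-fold had 10.9, 15.1 and 40.8 reads in control.

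Upstream of *Hdac4* lay 3 intergenic peaks, and 2 of them were at least 2-fold lower. At 34.0 kb the level was 224 in control and 124 in *Arid1a cKO* (-0.85), at 90.4 kb it was 21.9 and 10.5 (-1.06), and at 136 kb it was 29.4 and 12.8 (-1.20). Lower peaks also lay past the point where another start is nearer. The next pair of peaks upstream, nearest to the microRNA gene *Mir6900*, had 163 and 377 reads in control and 72.5 and 162 in *Arid1a cKO* (-1.17 and -1.22), and the 3 beyond them ranged from -0.80 to 1.06, the highest being a weak peak with 4.99 and 10.4 reads. Beyond the far end of *Hdac4*, the first peak nearest to *Twist2* had 75.6 and 12.8 reads (-2.56), and the next 4 ranged from -0.83 to 1.96. These flanking peaks are not counted among the 72.

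**Figure D3:**
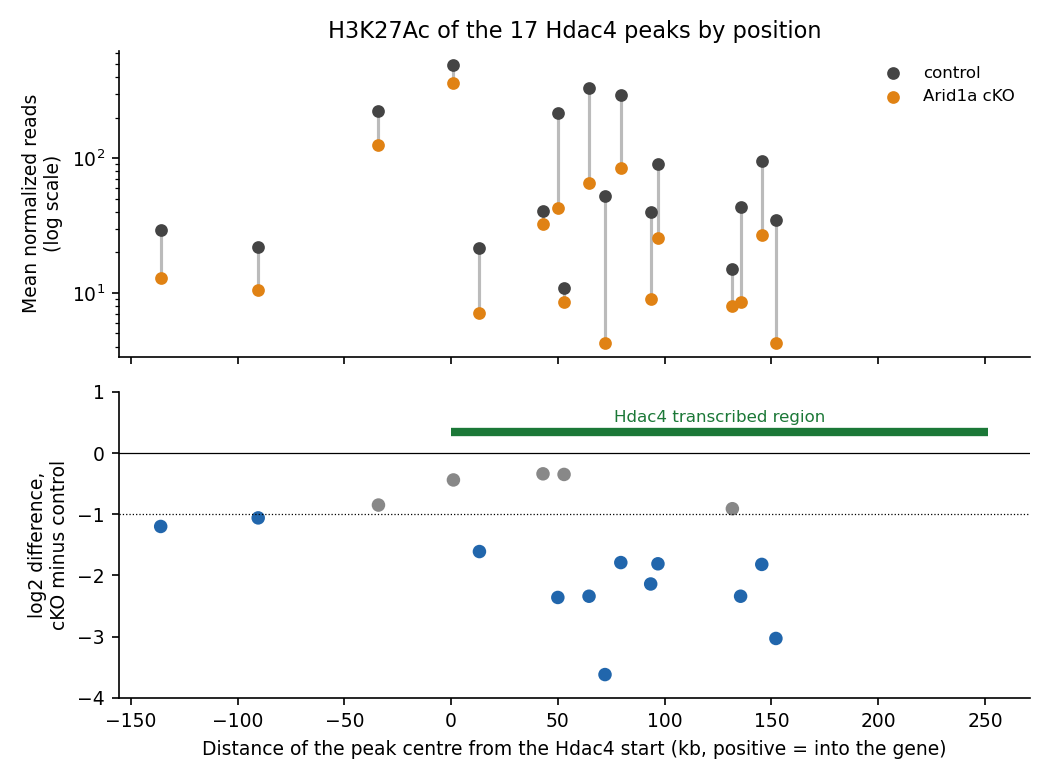
The 17 *Hdac4* peaks by distance of the centre from the transcription start in kb, positive into the gene. The upper panel gives mean normalized reads on a log axis in control (grey) and *Arid1a cKO* (orange), the lower panel the log2 difference, with blue points at least 2-fold lower. The start peak at 1.06 kb differs by -0.44, and 10 of the 13 other peaks inside the gene lie below -1.

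Against the 748 genes with at least 10 peaks, *Hdac4* had the highest number of lower peaks, the 6th highest share of lower peaks, the 4th lowest median and the 7th lowest ratio of summed reads. These ranks restate the contrast by which the genes were chosen. The 3 genes whose 10th, 25th, 50th, 75th and 90th percentiles of difference were closest to those of *Hdac4* over their peaks were *Dbx1*, *Ror1* and *Sulf2*, at Euclidean distances of 0.47, 0.63 and 0.71 on the log2 scale. Each had 9 lower and 0 higher peaks, of 13, 16 and 12, with medians of -1.42, -1.30 and -1.38. The *Dbx1* peaks lay 31.3 to 174 kb from its start, each centred in an intron or exon. They were assigned by the nearest start alone and need not belong to *Dbx1*.

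*Hdac9*, which restrains stress-induced growth of the heart, spans 869.514 kb on chromosome 12. All of its 16 peaks were intronic. The 11 that were centred in the short transcript held 647 reads in control and 466 in *Arid1a cKO*, 72.0% of control. Of these 11, 10 were below 0, beside 22225 of all 45980 peaks. The 5 that lay between the short and the long start held 118 and 191 reads, 163% of control. Of these 5, 3 had a higher mean in *Arid1a cKO* and 2 a smaller one (-0.58 and -0.61), so the second sum does not stand for every peak in it, and it rests on few reads.

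In the short transcript, 3 of the 11 *Hdac9* peaks (27.3%) were lower, beside 12.75% of all intronic peaks. The strongest, at 84.2 kb from the short start (chr12:34442989-34446318), had 143 reads in control and 71.5 in *Arid1a cKO*, which lies exactly at the 2-fold limit. At 72.8 kb the level was 21.0 and 3.32 (-2.66), and at 32.7 kb 14.9 and 5.21 (-1.52). A weak peak at 4.81 kb was higher, with 5.62 and 12.8 reads (1.19). Upstream of the short start, the peak at 50.8 kb (chr12:34578763-34580571) had 10.7 reads in control and 34.3 in *Arid1a cKO* (1.68), and 0.761% of all peaks in its decile of level were at least as high. The strongest peak of that stretch, at 185 kb, had 79.3 and 129 reads (0.70), and a weak one had 6.06 and 13.7 (1.18). In the lowest decile of peaks by level, where several of these lie, 17.5% of all peaks were lower and 16.4% higher, so weak peaks often differed by 2-fold in either direction.

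*Mef2a*, an abundant MEF2 factor of the postnatal heart, had 18 peaks, of which 17 lay in the region upstream of its start on chromosome 7. The 15 within 100 kb of the start together had 2944 reads in control and 2840.1 in *Arid1a cKO*, and 0 of them were lower. The strongest of the upstream peaks, at 72.7 kb (chr7:67442638-67448521), had 488 and 545 reads (0.16), and the next, at 88.8 kb, 372 and 304 (-0.29). A weak peak at 29.5 kb was higher, with 9.71 and 20.4 reads (1.07). The 3 peaks over 100 kb upstream held 232 reads in control and 106 in *Arid1a cKO*. At 106.544 kb (chr7:67478491-67480313) the level was 48.2 and 13.7 (-1.81), and at 109.882 kb it was 24.1 and 10.9 (-1.14). At 115.102 kb it was 160 and 81.6 (-0.97), just within 2-fold and so not called lower. The next peak outward, nearest to *Lrrc28*, had 29.9 and 8.06 reads (-1.89). This stretch thus lay between *Mef2a* and *Lrrc28*, and which gene it serves cannot be read from these data. Inside the *Mef2a* gene, a pair of peaks nearest to *Lysmd4* had differences of -0.51 and 0.01.

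**Figure D4:**
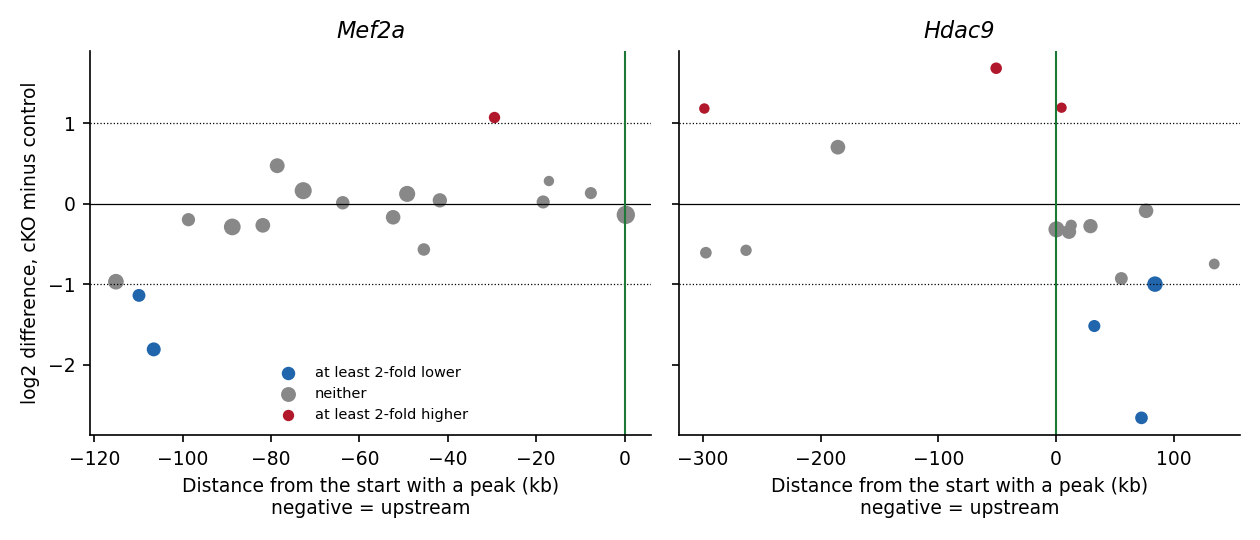
The log2 difference of each *Mef2a* and *Hdac9* peak by distance in kb from the start that a peak covers (green line), negative upstream, with larger points for a higher control level. Of the *Mef2a* peaks, those below -1 lie over 100 kb upstream. The *Hdac9* peaks below -1 lie inside the short transcript, and 2 of the 3 above 1 lie upstream of its start.

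*Mef2c* had 13 peaks, all inside the gene, which together held 2287 reads in control and 2293 in *Arid1a cKO*. Beside its start peaks, the strongest were 9.806 kb and 29.992 kb past the downstream start, with 208 and 218 reads (0.07) and with 171 and 142 reads (-0.27). Lower were 2 weak peaks, 1 with 11.8 and 3.78 reads (-1.64) and 1 with 10.7 and 5.24 (-1.03). *Mef2d*, expressed in most tissues, had 3 peaks, and the 2 upstream of its start peak differed by -0.42 and -0.36. A further peak inside the *Mef2d* gene lay nearest to the start of *1700113A16Rik* and was lower, with 212 reads in control and 79.3 in *Arid1a cKO* (-1.42). It lay at chr3:88161472-88167516, in an intron. *Mef2b*, the fourth gene of the family, had no nearest peak.

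*Hdac7* had 5 peaks, and the lowest, in an intron 5.63 kb from the upstream start, had 186 and 130 reads (-0.52). *Hdac5*, a repressor of cardiac growth genes, owed its lack of peaks to the rule. Of the 5 peaks centred inside it, 4 lay nearest to *Mir8101* and 1 to *G6pc3*. The strongest of them (chr11:102213567-102221175) had 662 reads in control and 516 in *Arid1a cKO* (-0.36), and the 5 ranged from -0.83 to 0.23. With 1076 and 890.5 reads in sum, *Hdac5* stood at 82.8% of control, beside 38.8% for the 14 peaks centred inside *Hdac4* and 94.3% for all peaks.

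Matches to the MEF2 core were counted to see what the regions shared beyond their position. In the central 500 bp, 4 of the 72 member peaks held a match (5.56%), beside 2.58% of all peaks and 5.56% of all peaks that were at least 2-fold lower. Over whole peaks the shares were 11 of 72 (15.3%) and 7.56%, or 0.0665 and 0.0334 matches per kb. Of the 19 lower member peaks 1 held a match, the one 90.4 kb upstream of *Hdac4* with 21.9 reads in control. In *Mef2c*, whole peaks with the core or its looser form, with C or T first and A or G last, numbered 10 of 13, beside 28.9% of all peaks. Per kb there were 0.75 such matches in *Mef2c* peaks and 0.172 over all peaks. The centres of *Mef2c* peaks were 40.7% G or C, beside 50.8% for all peaks, and the counts were not adjusted for this. The *Mef2c* peak that held the printed pair of matches differed by -0.27.

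The TEAD core, the site of the factors that YAP works through, was also counted. In the central 500 bp, 10 of the 17 *Hdac4* peaks (58.8%) held a match, beside 26.4% of all peaks and 29.4% of all lower peaks. Of the whole *Hdac4* peaks 15 of 17 did, beside 65.4% of all peaks, or 0.777 and 0.612 matches per kb. The ESRR core, bound by oestrogen-related receptors, was in the centre of 2 of 17, beside 11.3% of all peaks. Of the 18 *Mef2a* peaks, 5 held an ESRR core in the centre and 4 a TEAD core. A match is a short string of letters and not a measured binding site, and *Hdac4* was picked with its values known.

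The other genes of the pathway were read from fixed lists, each over the peaks nearest to its genes. Kinases of the class IIa deacetylases had 5 lower and 3 higher of 78 peaks, with a median of 0.01. The lowest of them by median was *Prkd1*, which encodes protein kinase D1. An intronic *Prkd1* peak had 47.8 reads in control and 2.38 in *Arid1a cKO*, under the floor of 3 reads, and its start peak had 43.4 and 27.5 (-0.66). The highest was *Camk4*, whose 2 weak peaks had 5.74 and 12.2 reads in control and 17.5 and 25.1 in *Arid1a cKO*. *Camk2d*, the main cardiac CaMKII gene, had 0 lower and 1 higher of 5 peaks and a median of 0.00.

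The 14-3-3 and export genes had 1 lower and 0 higher of 28 peaks. The lower peak was a weak one in *Ywhae*, with 16.1 and 5.70 reads (-1.50). Corepressors that class IIa deacetylases bind had 9 lower and 2 higher of 68. Of these, *Bcl6*, a transcriptional repressor, had the lowest median, with 186 and 89.9 reads at a peak centred in an exon (-1.05) and 1596 and 1136 at its strongest peak (-0.49). Deacetylases of the other classes had 0 lower and 0 higher of 19 peaks, from *Hdac8* with a median of -0.76 to *Hdac1* with 0.59 (2 peaks each). Kinases, phosphatases and coregulators of MEF2 had 7 lower and 2 higher of 87 peaks, with *Map2k3* lowest by median (-1.12, 2 peaks) and *Map2k6* highest (0.21, 6 peaks). The shares in these lists, from 0 to 13.2% lower, lay near or under the 10.6% of all peaks. Their higher shares, from 0 to 3.85%, lay under the 4.57% of all peaks.

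Genes known as MEF2 targets had 11 lower and 4 higher of 82 peaks (13.4% and 4.88%), with a median of -0.25 and summed reads of 78.0% of control. Over all peaks the shares were 10.6% and 4.57%, and summed reads stood at 94.3% of control. The lowest with 2 or more peaks was *Tcap*, which encodes the Z-disc protein telethonin. A *Tcap* peak 4.89 kb from its start had 369.6 reads in control and 144 in *Arid1a cKO* (-1.36), and its promoter peak had 526 and 329 (-0.68). *Xirp2* had the highest median (0.69, 2 peaks), set by a weak peak with 3.46 and 9.92 reads. *Ppargc1a*, a regulator of mitochondrial genes chosen here after its values were seen, had 4 lower of 19 peaks.

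**Figure D5:**
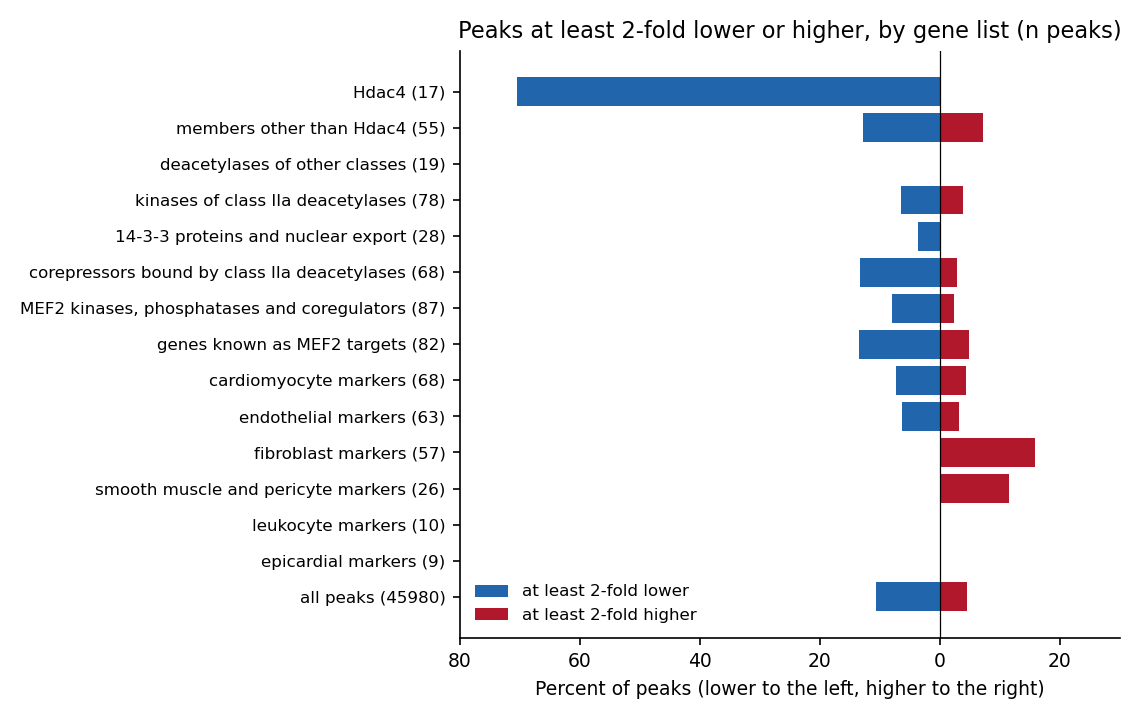
Percent of peaks at least 2-fold lower (blue, to the left) and at least 2-fold higher (red, to the right) in *Arid1a cKO* for *Hdac4*, the other members, each list and all peaks, with the number of peaks in brackets. *Hdac4* reaches 70.6% lower, the MEF2 target list 13.4%, and all peaks 10.6%.

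Marker genes of the cells in the ventricle were read in the same way. Over all peaks, 10.6% were lower and 4.57% higher, and 23277 of 45980 lay above 0. Peaks of 10 cardiomyocyte marker genes had a median of -0.15 and summed reads of 29053 in control and 26593 in *Arid1a cKO*. Of these 68 peaks, 5 (7.35%) were lower and 3 (4.41%) higher. Peaks of 10 fibroblast marker genes had a median of 0.36 and summed reads of 4146 and 5504. Of these 57 peaks, 0 were lower and 9 (15.8%) higher, and 48 lay above 0. Smooth muscle and pericyte markers had 0 lower and 3 higher (11.5%) of 26, and leukocyte markers 0 and 0 of 10, 9 of them above 0. Endothelial markers had a median of 0.07, with 4 lower (6.35%) and 2 higher (3.17%) of 63. Epicardial markers had a median of -0.15, with 0 and 0 of 9. The part of these shifts in the *Hdac4*, *Mef2a* and *Hdac9* values was not tested. *Hdac4* stood at 40.8% of control in summed reads, the cardiomyocyte markers as a list at 91.5%, and all peaks at 94.3%. These sums weigh unlike peaks, as the strongest had 495 reads in control at *Hdac4* and 5997 among the cardiomyocyte markers. *Arid1a* itself had 2 peaks with differences of 0.05 and -0.02, and H3K27Ac at its start does not check the deletion.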

How the data were processed

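H3K27Ac ChIP-Seq and input libraries of P7 ventricles were grouped by genotype and antibody as labelled. For alignment to mm10 the authors used BWA (0.7.17-r1188). HOMER found histone-style peaks relative to pooled input, and a peak had to occur in 2 or more samples. The authors compared the groups with DiffBind (2.12.0), through DESeq2 (1.24.0). The labels' processing notes name HOMER 4.11. The deposited values used here are log2 mean normalized reads, pooled by the authors over all samples and per group. The authors' fold change, p-value and FDR columns were not used. Library scaling and treatment of the input are not given in the sources used here, and no depth per sample is known.

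The difference of the deposited group means was taken for each peak, with 2-fold as the limit and 3 normalized reads as the floor. No member peak was at or under the floor. The last peak on each of 21 chromosomes lay inside the GRCm38.p6 reference, and 7 peaks on unplaced sequences were left out. The nearest start was sought over 45756 curated RefSeq transcripts. All 7 members matched the RefSeq promoter table. Matches were counted in whole peaks and in their central 500 bp. Assignment, calls and matching were tested on simulated data.

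Members and lists were chosen with earlier results of these data known. Named peaks are those of the members that cover a start, differ by at least 2-fold or have a high mean, and, for each list, the genes with the lowest and highest median over at least 2 peaks. A result that this rule would name is not reported here. Other peaks were added for completeness. Alternatives covered the assignment, distance, level, centring, added reads, threshold and motif window. With group means only, no test was run and no replicate could be left out. Python 3.11.15 was used with numpy 2.4.6, pandas 2.3.3, pysam 0.24.0 and matplotlib 3.10.9.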

Additional observations from a re-analysis of the deposited data

How the results depend on the processing

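The 19 lower and 4 higher of 72 peaks numbered 11 and 1 of 47 when only peaks with an overall mean of at least 20 normalized reads were kept. They numbered 12 and 1 of 72 with 5 normalized reads added to both groups, and 7 and 0 of 72 at a 4-fold threshold. The shares of all peaks were not counted for the level and added-reads settings. All peaks at 4-fold were 3.77% lower and 0.65% higher. Member peaks that overlapped a start numbered 8, against 0 centred in the promoter window. Member peaks with a MEF2 core match numbered 4 in the central 500 bp, 11 over whole peaks and 8 with the looser core. The median of all member peaks stayed below 0. Medians near 0 changed sign for *Mef2a*, from -0.065 to 0.075 over all RefSeq transcripts and 0.02 within 100 kb, and for *Hdac7*, from 0.06 to -0.13 over all RefSeq transcripts, -0.26 in the gene body and -0.32 at a mean of at least 20 reads. *Hdac4* kept a median between -1.82 and -1.63 over 7 alternatives and 6 to 14 lower peaks over 9, with the fewest at the 4-fold threshold. The lower *Mef2a* peaks numbered 0 of 4 when the nearest start was sought over all RefSeq transcripts, 0 of 4 in the gene body and 0 of 15 within 100 kb. The lower *Mef2c* peaks numbered 0 of 9 at a mean of at least 20 reads, and *Hdac9* then kept 1 of 7. *Mef2d* gained 1 lower peak with protein-coding starts. Of 131 values under alternatives, 99 stayed within 1.5 times the count or 0.1 of the median. No paired analysis was possible because the table holds group means and no values of single samples. For the same reason no library could be left out, and a difference at a weak peak cannot be set against the spread between hearts.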
